A study of Mus musculus with 13 samples.

Results

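Glucocorticoid signalling was followed through 10 genes, namely the glucocorticoid receptor gene Nr3c1 and 9 genes known as its targets or as part of the pathway, Fkbp5, Tsc22d3, Dusp1, Per1, Zbtb16, Klf9, Sgk1, Pdk4 and Hsd11b1. They were matched by mouse symbol to the Ensembl identifiers of the count table, where they are 10 of 53379 genes. The matching used no measured value, but the genes were chosen with earlier results of these data known. All 10 passed the filter on low counts that left 19984 genes for testing. The libraries are bulk RNA-seq of CD45- cells sorted from the thymus, a stromal mixture of fibroblasts (FBs), endothelium and thymic epithelial cells (TECs). The mice were wild-type C57BL/6 animals aged 2 months. There were 4 libraries of PBS controls at steady state and 3 libraries for each day after a sublethal dose of total body irradiation (TBI), which were days 1, 4 and 7. The count table names the steady-state libraries as PBS day 1 replicate 2, PBS day 4 replicate 2, PBS day 7 replicate 1 and PBS day 7 replicate 2, and values at steady state are given in that order. The study's methods call these libraries biological replicates, a term they use for individual mice.

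Glucocorticoids are adrenal steroids that cross the cell membrane and bind the receptor encoded by Nr3c1, which is held in the cytoplasm by heat shock proteins until the hormone binds. The bound receptor enters the nucleus, switches on genes such as Tsc22d3 and Fkbp5 and holds down many inflammatory genes. In the thymus the hormone is best known for killing cortical thymocytes during stress, and thymic epithelial cells can themselves make it.

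The total count ran from 15721866 to 52056896 per library (median 44078906), so the 10 genes were well covered, with between 96 counts (Per1, day 7 replicate 1) and 29942 counts (Dusp1) in a library. Levels are given as CPM, counts scaled to library size, after TMM normalization, and levels of different genes were compared in CPM per kilobase of exonic length. The choice of named genes in lists without a call used mean CPM instead. On the first principal component, which held 39.8% of the variance, 3 libraries stood apart: day 1 replicate 1 and day 4 replicates 2 and 3, with loadings of 0.38 to 0.63 against -0.31 to -0.00206 in the other 10. Markers of other cells moved with the conditions. The summed level of 14 thymocyte markers was 273 to 888 CPM at steady state, 128 to 165 CPM at day 1, 28.5 to 43.9 CPM at day 4 and 243 to 5644 CPM at day 7, the highest being day 7 replicate 2. The summed level of 10 TEC markers was 1044 to 3776 CPM at steady state, 1431 to 2863 CPM at day 1, 2971 to 4777 CPM at day 4 and 809 to 1524 CPM at day 7. That of 8 FB markers was 4392 to 8046, 4213 to 4726, 5231 to 7073 and 5301 to 6988 CPM in the same order. That of 4 markers of vascular smooth muscle cells and pericytes was 744 to 1670, 1773 to 2695, 1060 to 1198 and 653 to 911 CPM. Day 1 thus lay above steady state without overlap for these 4. At day 1, 1 FB marker (Postn) was called lower and 1 of the 4 (Pdgfrb) higher, while 2.35% of all genes were called. The summed level of 3 erythroid markers was 1516 to 3481 CPM at steady state, 289 to 967 CPM at day 1, 4.36 to 6.65 CPM at day 4 and 237 to 643 CPM at day 7, so all 9 libraries after TBI lay below all 4 at steady state. The sum was mostly Alas2, which reached 3471 CPM, against at most 10.1 CPM for Klf1 and 16.4 CPM for Epb42 in any library. Of the 3, Epb42 and Alas2 were called lower at days 1 and 4, and none was called lower at day 7. Epb42 and Klf1 were called higher at day 7 than at day 1, while 8.13% of all genes were called. No marker of these lists was at 0 in every library. Whether these shifts had a part in the values below was not tested, and in bulk RNA fewer cells of a type and less RNA per cell cannot be told apart.

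No member of the set passed the test against steady state at any day, by an adjusted p of 0.05 or less in edgeR's quasi-likelihood test. At day 1, 0 of 10 were called while 2.35% of all genes were. At day 4, 0 of 10 were called against a background of 0.290%, and at day 7, 0 of 10 against 0.00500%, which is 1 gene of 19984. At an unadjusted p under 0.05 there were 2 members at day 1 (17.2% of all genes), 1 at day 4 (13.02%) and 4 at day 7 (13.5%). DESeq2 called 0, 0 and 2 members at the 3 days, the 2 being Per1 and Sgk1 at day 7, and 7.00%, 3.23% and 5.41% of all genes. The day 1, day 4 and day 7 comparisons share the same 4 steady-state libraries. Most members were lower than at steady state in the fit, 8 of 10 at day 1 (7 with RLE normalization, where Zbtb16 turned to 0.02), 7 at day 4 and 7 at day 7, while 56.4%, 58.9% and 49.7% of all genes were lower. The median log2 difference of the members was -0.28 at day 1, -0.47 at day 4 and -0.76 at day 7, beside -0.10, -0.13 and 0.00 over all genes tested. The test of any difference among the 4 conditions called 0 members and 6.66% of genes, with Per1 (adjusted p = 0.052) and Sgk1 (adjusted p = 0.062) the members nearest to the threshold. DESeq2 called both of them in that test and 18.3% of all genes, and 4 members had an unadjusted p under 0.05, as did 24.0% of all genes. Between days after TBI, 2 calls were made, Per1 lower at day 7 than at day 1 and Sgk1 lower at day 7 than at day 4.

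**Figure D1:**
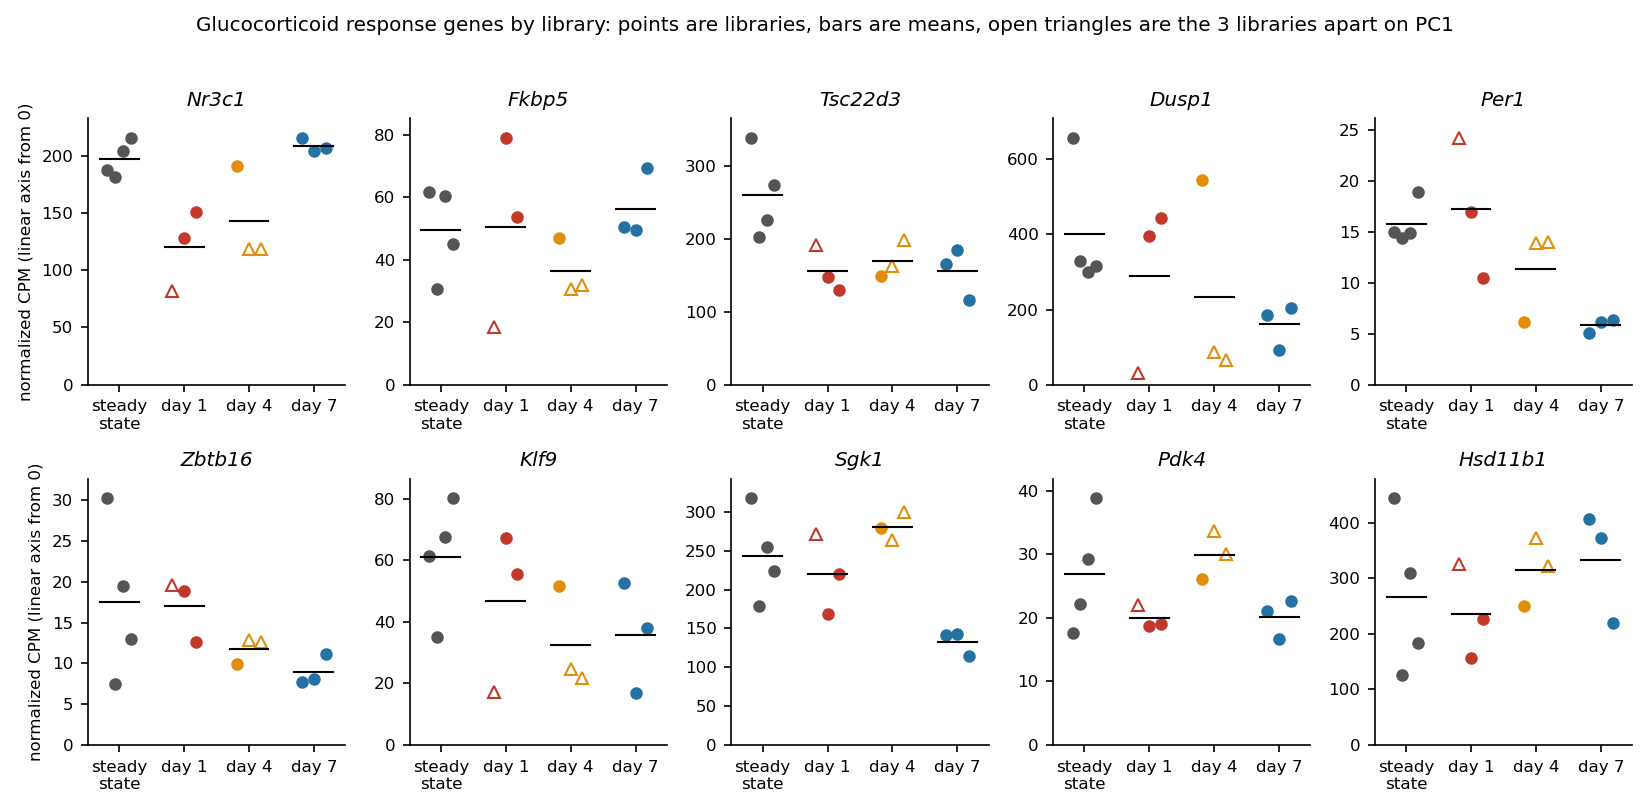
Normalized CPM (vertical axes, linear and starting at 0) of the 10 genes in each of the 13 libraries by condition; points are libraries, bars are means, and open triangles are the 3 libraries that stood apart on the first principal component. All 9 libraries after TBI lie below the 4 steady-state libraries for Tsc22d3, and the 3 day 7 libraries of Per1 and Sgk1 lie below all steady-state and day 1 libraries.

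Promoter windows from 250 bases before to 50 after a transcription start were taken from RefSeq (GRCm38.p6), which gave 16 windows for 8 of the 10 genes. Where a gene has several, the window with the most motif matches is shown, 1 of 6 for Sgk1, 1 of 3 for Tsc22d3 and 1 of 2 for Per1. Windows are printed for Sgk1 and Per1, the genes with a call between days, for Tsc22d3, which was lower in every library after TBI, and for Dusp1, which had the widest range. The windows were searched on both strands for the full glucocorticoid response element (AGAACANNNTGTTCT), its hexamer (AGAACA, or TGTTCT on the other strand), the E-box CACGTG that clock proteins bind, and the cyclic AMP response element TGACGTCA. Each sequence runs 5′ to 3′ on the strand of the gene, with the matches in capitals.
Sgk1, chr10:21993640-21993939, plus strand: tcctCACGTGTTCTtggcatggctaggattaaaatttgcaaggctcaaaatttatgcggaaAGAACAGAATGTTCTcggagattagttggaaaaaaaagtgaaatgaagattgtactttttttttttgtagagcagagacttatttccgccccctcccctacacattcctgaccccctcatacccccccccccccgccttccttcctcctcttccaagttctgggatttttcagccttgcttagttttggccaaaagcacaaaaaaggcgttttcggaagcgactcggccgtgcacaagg
Tsc22d3, chrX:140600473-140600772, minus strand: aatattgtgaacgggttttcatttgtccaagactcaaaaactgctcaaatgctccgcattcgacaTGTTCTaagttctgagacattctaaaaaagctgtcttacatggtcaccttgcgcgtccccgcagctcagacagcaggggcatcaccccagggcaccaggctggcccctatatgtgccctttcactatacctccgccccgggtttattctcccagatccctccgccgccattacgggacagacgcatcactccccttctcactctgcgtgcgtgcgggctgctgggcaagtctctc
Per1, chr11:69098699-69098998, plus strand: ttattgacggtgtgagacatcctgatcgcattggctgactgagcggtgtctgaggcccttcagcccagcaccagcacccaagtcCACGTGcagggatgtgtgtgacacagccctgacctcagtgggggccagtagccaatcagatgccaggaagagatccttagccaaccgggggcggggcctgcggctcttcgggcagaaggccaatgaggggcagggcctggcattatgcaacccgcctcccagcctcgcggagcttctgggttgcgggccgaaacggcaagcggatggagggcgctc
Dusp1, chr17:26508423-26508722, minus strand: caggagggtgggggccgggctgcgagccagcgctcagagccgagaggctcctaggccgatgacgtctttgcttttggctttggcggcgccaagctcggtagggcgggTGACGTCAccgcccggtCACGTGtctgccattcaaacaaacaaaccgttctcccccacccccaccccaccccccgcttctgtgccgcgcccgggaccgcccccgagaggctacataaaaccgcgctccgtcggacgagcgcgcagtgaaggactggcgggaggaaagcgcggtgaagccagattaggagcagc
The full element occurred in 3 of 32851 windows in the table, and the Sgk1 window was among them, with the match beginning 189 bases upstream of the start, while the other 5 Sgk1 windows lack it. The element itself begins and ends with the hexamer, and a further hexamer in this window overlaps the E-box by its first bases. The Tsc22d3 window holds the hexamer 185 bases upstream, and the other 2 windows of the gene do not hold it. The hexamer is in 19.0% of all windows, and 21.3% of genes have it in at least 1 window. The E-box lies 166 bases upstream of the Per1 start and 126 bases upstream of the Dusp1 start, and 7.15% of windows and 8.09% of genes hold it. Among the genes whose windows are not printed, Fkbp5 holds the E-box 169 bases upstream of its start. The windows of Klf9, Pdk4 and Hsd11b1 hold none of the motifs. The element for cyclic AMP lies 143 bases upstream of the Dusp1 start and is in 1.79% of windows. A match describes the letters only and no binding was measured in these data.

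Nr3c1 encodes the receptor through which the other genes respond. It lies on chromosome 18 (39410545 to 39491301, minus strand, GRCm38). At steady state its level was 188, 181, 204 and 215 CPM. It was 81.9, 129 and 151 CPM in day 1 replicates 1, 2 and 3, 191, 119 and 119 CPM at day 4, and 215, 204 and 207 CPM at day 7. All 3 day 1 libraries therefore lay below every steady-state library, day 4 replicate 1 lay within the steady-state range and the other two below it, and day 7 overlapped steady state. The mean was 197 ± 15.4 CPM (SD, n = 4) at steady state and 120.4 ± 35.1 CPM (n = 3) at day 1, a log2 difference of -0.71 ± 0.24 (SE, 95% CI -1.23 to -0.19, adjusted p = 0.154). At day 4 the log2 difference from steady state was -0.46 (95% CI -0.98 to 0.05) and at day 7 it was 0.08 (95% CI -0.43 to 0.59). In order of the mean, day 7 and steady state came first, then day 4 and day 1, and each neighbour in that order overlapped the next. Between days, day 7 was higher than day 1 in 3 of 3 libraries with no overlap, by 0.79 on the log2 scale (95% CI 0.25 to 1.34), with an adjusted p of 0.0732. The 3 lowest Nr3c1 libraries were the 3 that stood apart, and without them the differences were -0.48 at day 1 (adjusted p = 0.457) and -0.0373 at day 4, and 0.56 for day 7 against day 1 (adjusted p = 0.19). The libraries form 3 families by an unexplained tag at the end of their column names (k3, kk or neither). With tag family as a covariate, the day 1 difference was -0.84 with an adjusted p of 0.0427.

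Fkbp5 encodes a co-chaperone that lowers the hormone affinity of the receptor and is itself induced by it, which makes a short feedback loop. Its level was 61.8, 30.8, 60.3 and 44.9 CPM at steady state, 18.6, 78.9 and 53.8 CPM at day 1, 46.8, 30.6 and 31.8 CPM at day 4, and 50.4, 49.4 and 69.2 CPM at day 7. The lowest and the highest of all 13 libraries were both from day 1, and every day overlapped steady state. The log2 difference from steady state was 0.03 at day 1 (95% CI -0.83 to 0.88), -0.44 at day 4 (95% CI -1.31 to 0.42) and 0.19 at day 7 (95% CI -0.66 to 1.04). The day 1 interval runs about as far above 0 as below it, so no difference was detectable with this spread. Without the 3 libraries that stood apart, the day 1 difference was 0.45 (adjusted p = 0.635).

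Tsc22d3 encodes GILZ, a leucine zipper protein that carries much of the anti-inflammatory action of glucocorticoids and is among their most direct targets. Its level was 338, 203, 226 and 274 CPM at steady state. After TBI it was 192, 147 and 129 CPM at day 1, 149, 163 and 199 CPM at day 4, and 165, 185 and 117 CPM at day 7. All 9 libraries after TBI lay below all 4 at steady state, although day 4 replicate 3 (199 CPM) lay close to the lowest of them (203 CPM). Of all genes tested, 72 (0.360%) were lower without overlap in this way. The log2 difference from steady state was -0.74 ± 0.25 (SE) at day 1 (95% CI -1.27 to -0.21, adjusted p = 0.149), -0.61 ± 0.24 at day 4 (95% CI -1.14 to -0.09, adjusted p = 0.332) and -0.74 ± 0.25 at day 7 (95% CI -1.27 to -0.21, adjusted p = 0.178). The days did not differ among themselves beyond their spread, with means of 156, 170.1 and 155 CPM against 260.1 CPM at steady state. The mean of the 3 days was set against steady state after these values were seen. It gave a log2 difference of -0.70 (95% CI -1.10 to -0.30) with an adjusted p of 0.16, and the adjusted p lay between 0.0573 and 0.495 in 21 alternatives. Without the 3 libraries that stood apart the differences were -0.89, -0.79 and -0.74 at days 1, 4 and 7, with 1 library left at day 4. In the main fit of the mean of the 3 days against steady state, no member passed and 0.335% of all genes were called. Per1 and Tsc22d3 had an unadjusted p under 0.05 there, as did 12.2% of all genes. With tag family as a covariate the differences were -0.72, -0.67 and -0.83 at days 1, 4 and 7 (adjusted p = 0.126, 0.388 and 0.45). The summed erythroid markers, mostly Alas2, were also lower in all 9 libraries, with 1516 to 3481 CPM at steady state and at most 967 CPM after TBI. None of these markers was called lower at day 7, and their part in the Tsc22d3 values was not tested.

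Dusp1 encodes a phosphatase that switches off MAP kinases and is induced both by glucocorticoids and, as an immediate early gene, by stress and growth signals. Per kilobase it was the most abundant of the 10 at steady state, with 148 CPM per kilobase. Its level was 657, 329, 299 and 316 CPM at steady state, 31.7, 397 and 443 CPM at day 1, 545, 88.2 and 66.5 CPM at day 4, and 186, 92.9 and 204 CPM at day 7. The libraries of days 1 and 4 fell into high and low values, and the 3 low ones were the 3 libraries that stood apart. The highest library was 20.7 times the lowest, the widest range among the members. The log2 difference from steady state was -0.46 at day 1, -0.78 at day 4 and -1.31 at day 7 (95% CI -3.09 to 0.46, adjusted p = 0.58), although all 3 day 7 libraries lay below the steady-state libraries. Without the 3 libraries that stood apart the difference turned to 0.10 at day 1 and 0.46 at day 4, the latter with 1 library left at day 4. With 1 library left out at a time, the day 4 difference ran from -2.24, without day 4 replicate 1, to -0.34.

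The 3 libraries that stood apart differed from the other 3 of days 1 and 4 most in transcripts with a GC-rich stretch. When genes were divided into 5 bins by the GC content of their richest 200-base window, the median log2 difference between these libraries was 0.31, 0.25, 0.13, -0.42 and -1.25 from the lowest to the highest bin. Dusp1 (window of 75.0% GC) differed by -2.99 and Klf9 (80.0% GC) by -1.45. Fkbp5 differed by -1.14 at a window of 60.5% GC, where the median of all genes was above 0. The other 6 genes apart from Nr3c1 (-0.56) were higher in the 3 libraries by 0.14 to 0.71. The 3 libraries are 1 of day 1 and 2 of day 4 and the other 3 are 2 of day 1 and 1 of day 4, so these differences also carry any difference between the days. Within day 1 and within day 4 the medians of the lowest and the highest bin were 0.57 and -1.52, and 0.18 and -1.05. Within day 1 Dusp1 differed by -3.70 and Klf9 by -1.80, and within day 4 by -2.82 and -1.15. The same 6 genes were higher within both days, Sgk1 by 0.49 within day 1 and by 0.00793 within day 4. Of the 10 members, 2 (Nr3c1 and Dusp1) were lower in these 3 libraries than in all 10 others, beside 13.1% of all genes.

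**Figure D2:**
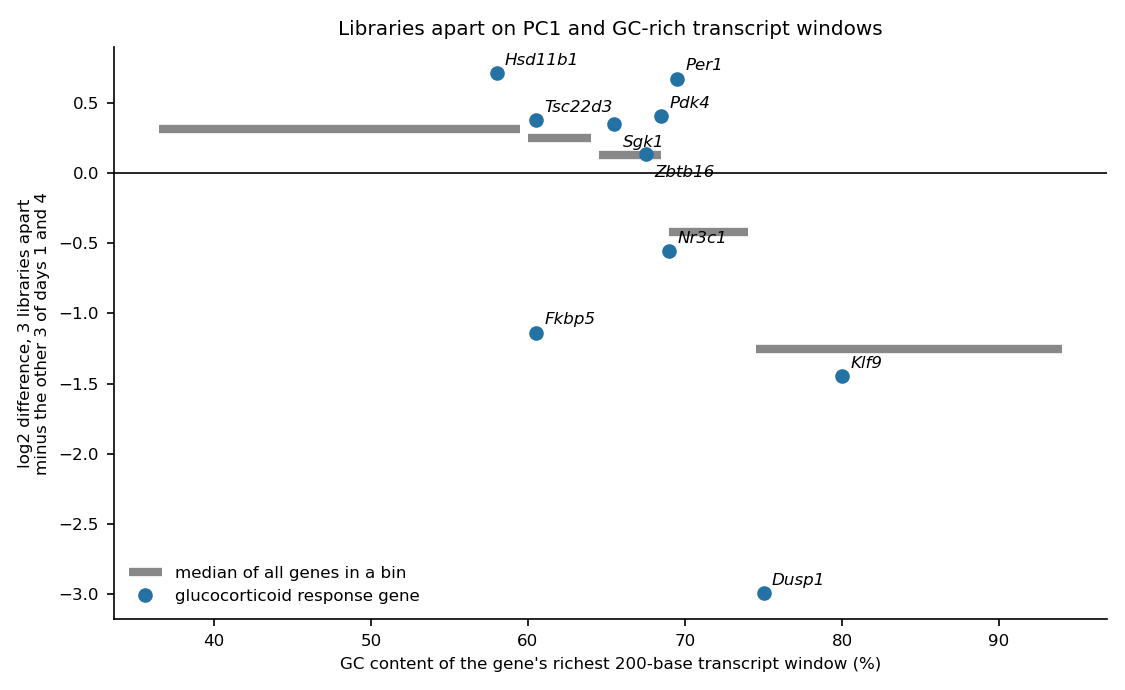
Log2 difference of the mean between the 3 libraries that stood apart (day 1 replicate 1, day 4 replicates 2 and 3) and the other 3 of days 1 and 4 (vertical axis) against the GC content of the richest 200-base window of the transcript in percent (horizontal axis). Blue points are the 10 genes and grey bars the median of all genes in each of 5 bins of window GC, which falls from 0.31 to -1.25; Dusp1 is the lowest point at -2.99.

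Per1 encodes a repressor of the circadian clock that glucocorticoids induce directly, and it is the least abundant of the 10 per kilobase (2.81 CPM per kilobase at steady state). Its level was 15.04, 14.4, 14.9 and 18.9 CPM at steady state, 24.2, 17.0 and 10.5 CPM at day 1, 6.20, 14.0 and 14.0 CPM at day 4, and 5.13, 6.15 and 6.37 CPM at day 7. The day 7 libraries lay below every steady-state and every day 1 library, and 1 day 4 library fell among them. Day 7 was lower than day 1 by -1.55 ± 0.35 on the log2 scale (95% CI -2.32 to -0.78, adjusted p = 0.0203), in 3 of 3 libraries. Per1 was 1 of 10 members called in that comparison, in which 8.13% of all genes were called and 4.45% were called lower. Against steady state the day 7 difference was -1.43 (95% CI -2.16 to -0.70, adjusted p = 0.117), and the day 1 difference was 0.12 (95% CI -0.57 to 0.82). Against day 4 the day 7 difference was -0.96 (95% CI -1.72 to -0.20, adjusted p = 0.154). In order of the mean, day 1 (17.2 CPM) and steady state (15.8 CPM) overlapped, steady state and day 4 (11.4 CPM) did not, and day 4 overlapped day 7 (5.88 CPM). Leaving out a library ended the call between days 7 and 1 in 4 cases. Without day 1 replicate 1 the difference was -1.22 (adjusted p = 0.0794), without day 1 replicate 2 it was -1.56 (0.053), and without day 7 replicate 2 or 3 it was -1.61 (0.0672) or -1.67 (0.0582). Without the 3 libraries that stood apart it was -1.24 (0.0777). The call was also lost with a thymocyte score as covariate (-1.86, adjusted p = 0.109) and with a block for the replicate number (-1.56, adjusted p = 0.116). The summed thymocyte markers were 128 to 165 CPM at day 1 and 243 to 5644 CPM at day 7, without overlap. The thymocyte score and the day therefore cannot be fully told apart in that fit. Within the kk tag family, the only family with libraries of both days, Per1 was 24.2 CPM in the day 1 library and 6.37 CPM in the day 7 library.

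Zbtb16 encodes PLZF, a zinc finger repressor that is strongly induced by glucocorticoids in many cells and also marks innate-like T cells. Its level was 30.2, 7.48, 19.5 and 12.98 CPM at steady state, 19.6, 18.9 and 12.6 CPM at day 1, 9.94, 12.8 and 12.7 CPM at day 4, and 7.73, 8.11 and 11.1 CPM at day 7. The steady-state libraries alone spanned the range of every later library. The log2 difference from steady state was -0.04 at day 1 (95% CI -0.87 to 0.78), -0.57 at day 4 (95% CI -1.40 to 0.26) and -0.96 at day 7 (95% CI -1.81 to -0.12, adjusted p = 0.282). Day 7 lay below day 1 without overlap, by -0.92 on the log2 scale (adjusted p = 0.191). With a thymocyte score as covariate, the differences from steady state turned to 0.35 at day 1 and 0.28 at day 4, and neither passed the test.

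Klf9 encodes a Krüppel-like factor that glucocorticoids and thyroid hormone induce. Its level was 61.2, 34.9, 67.4 and 80.0 CPM at steady state, 17.2, 67.1 and 55.6 CPM at day 1, 51.6, 24.6 and 21.6 CPM at day 4, and 52.5, 17.0 and 37.9 CPM at day 7. Each day overlapped steady state. The lowest library was day 7 replicate 2, followed by the 3 libraries that stood apart. The log2 difference from steady state was -0.38 at day 1 (95% CI -1.45 to 0.68), -0.90 at day 4 (95% CI -1.99 to 0.18) and -0.77 at day 7 (95% CI -1.85 to 0.31), and none passed the test. With the 3 libraries that stood apart left out it turned to 0.0341 at day 1 and was -0.23 at day 4. With a thymocyte score as covariate it was -0.97 at day 1 and -2.20 at day 4, and neither passed.

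Sgk1 encodes a kinase of ion transport and survival that is induced by glucocorticoids and mineralocorticoids, and its promoter window above holds the full element. Its level was 317, 179, 254 and 224 CPM at steady state, 271, 168 and 220.2 CPM at day 1, 279.7, 264 and 300.1 CPM at day 4, and 142, 143 and 115 CPM at day 7. The 3 day 7 libraries were the lowest of all 13. Day 7 was lower than day 4 by -1.08 ± 0.25 on the log2 scale (95% CI -1.61 to -0.55, adjusted p = 0.0317), in 3 of 3 libraries. It was 1 of 10 members called in this comparison, with 3.90% of all genes called and 1.13% called lower. The day 7 difference was -0.87 from steady state (95% CI -1.38 to -0.37, adjusted p = 0.129) and -0.72 from day 1 (95% CI -1.25 to -0.20, adjusted p = 0.0883), both without overlap. At days 1 and 4 Sgk1 differed from steady state by -0.15 (95% CI -0.64 to 0.35) and 0.21 (95% CI -0.29 to 0.70). In order of the mean, day 4 (281 CPM), steady state (244 CPM) and day 1 (219.8 CPM) overlapped their neighbours, and day 7 (133 CPM) stood below day 1 without overlap. Leaving out a library ended the call between days 7 and 4 in 5 cases. The difference was -1.19, -1.12 and -1.03 without day 4 replicates 1, 2 and 3 (adjusted p = 0.0503, 0.119 and 0.127), and -1.20 and -1.08 without day 7 replicates 2 and 3 (adjusted p = 0.0882 and 0.102). Without the 3 libraries that stood apart, which left 1 library at day 4, it was -1.08 (adjusted p = 0.626). Within the k3 tag family, Sgk1 was 264 and 300.1 CPM in the day 4 libraries and 142 and 143 CPM in the day 7 libraries. The summed TEC markers were 809 to 1524 CPM at day 7 against 2971 to 4777 CPM at day 4, and the summed thymocyte markers 243 to 5644 CPM against 28.5 to 43.9 CPM. With a thymocyte score as covariate, the difference of day 7 from day 4 was -1.34 (adjusted p = 0.33). Since the thymocyte markers did not overlap between these days, that fit cannot fully tell the score from the day.

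**Figure D3:**
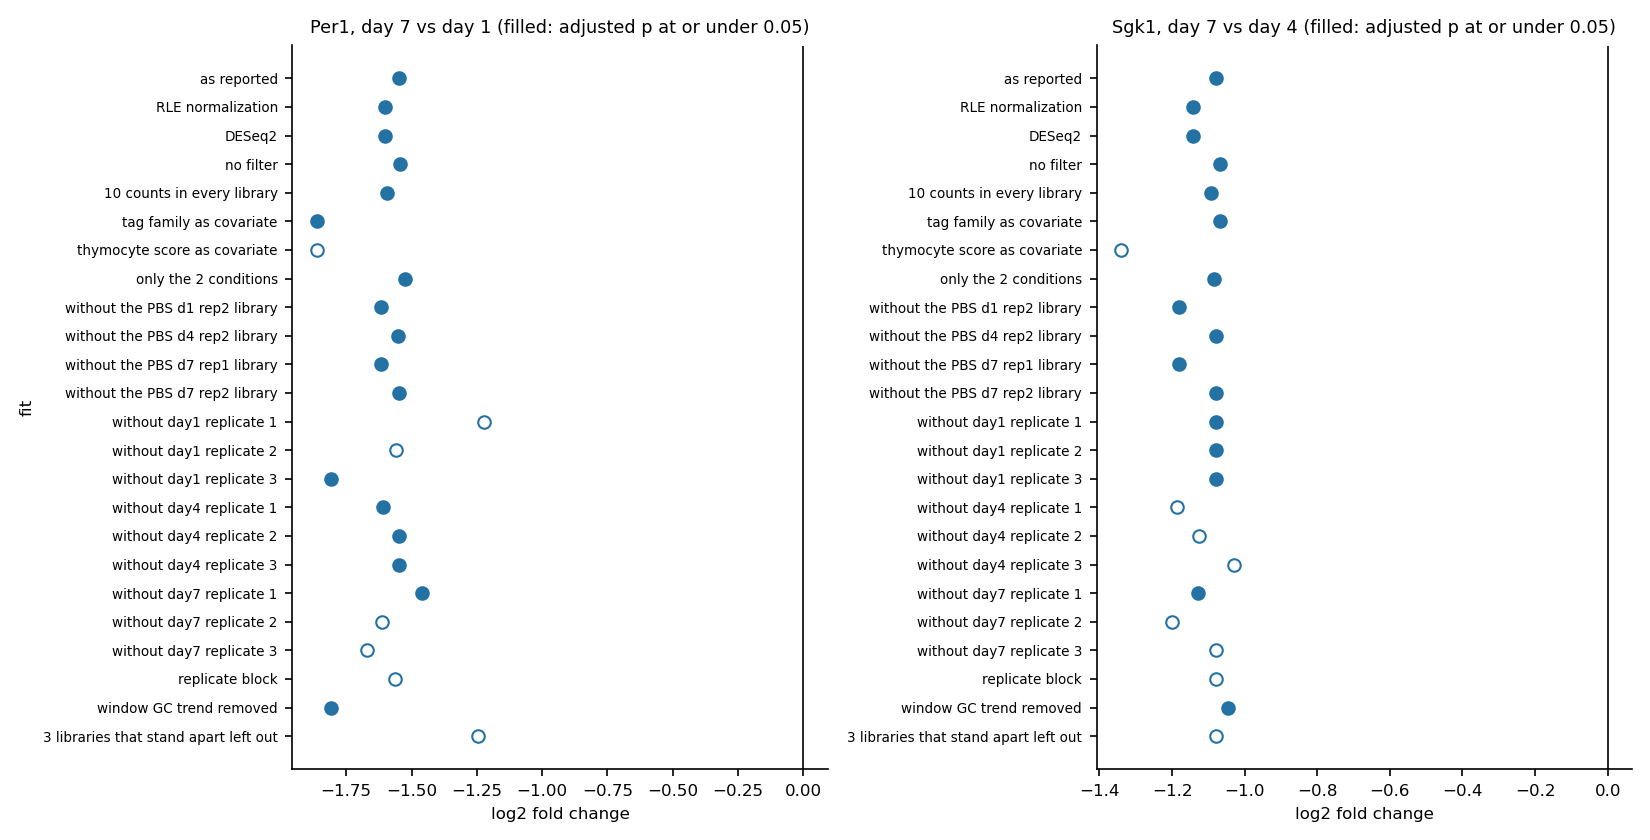
Log2 fold change (horizontal axes) of Per1 at day 7 against day 1 (left) and of Sgk1 at day 7 against day 4 (right) in the fit as reported and in each alternative fit (rows), with filled points where the adjusted p is at or under 0.05. All fits lie below 0, between -1.86 and -1.22 for Per1 and between -1.34 and -1.03 for Sgk1, and 16 and 15 of 23 alternatives keep the call.

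Pdk4 encodes a kinase that shuts down pyruvate dehydrogenase and so turns cells from glucose to fat as fuel, a known action of glucocorticoids and fasting. Its level was 17.6, 22.1, 29.3 and 38.8 CPM at steady state, 22.0, 18.8 and 19.1 CPM at day 1, 26.1, 33.6 and 30.0 CPM at day 4, and 21.1, 16.7 and 22.7 CPM at day 7. Day 4 lay above both day 1 and day 7 without overlap, while steady state overlapped all 3 days. The log2 difference of day 4 from day 1 was 0.59 (95% CI -0.01 to 1.18, adjusted p = 0.376) and that of day 7 from day 4 was -0.57 (95% CI -1.17 to 0.03, adjusted p = 0.292). Of all genes, 12.6% were higher at day 4 than at day 1 and 14.0% lower at day 7 than at day 4 without overlap. From steady state Pdk4 differed by -0.43 at day 1, 0.15 at day 4 and -0.42 at day 7, and no interval excluded 0. Pdk4 turned to -0.0419 at day 4 without the 3 libraries that stood apart.

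Hsd11b1 encodes the enzyme of the endoplasmic reticulum that turns inactive 11-dehydrocorticosterone back into corticosterone, and so raises the hormone within the cell. Its level was 444, 125, 310.4 and 183 CPM at steady state, 326, 156 and 228 CPM at day 1, 251, 373 and 323 CPM at day 4, and 407, 373 and 220.0 CPM at day 7. The lowest and the highest library were both at steady state, so every day fell within that range. The log2 difference from steady state was -0.17 at day 1 (95% CI -1.03 to 0.70), 0.25 at day 4 (95% CI -0.61 to 1.11) and 0.33 at day 7 (95% CI -0.53 to 1.18). Its partner H6pd, which supplies the enzyme with NADPH, was 217, 289.97, 318 and 287 CPM at steady state and 559.8, 592 and 493 CPM at day 1. H6pd was thus higher at day 1 in 3 of 3 libraries, by 0.98 on the log2 scale with an adjusted p of 0.0615 (DESeq2 called it, adjusted p = 0.00443). It was lower at day 7 than at day 1 by -1.03 (adjusted p = 0.0368), at 361, 161 and 283 CPM, a call that 9 of 23 alternatives kept.

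**Figure D4:**
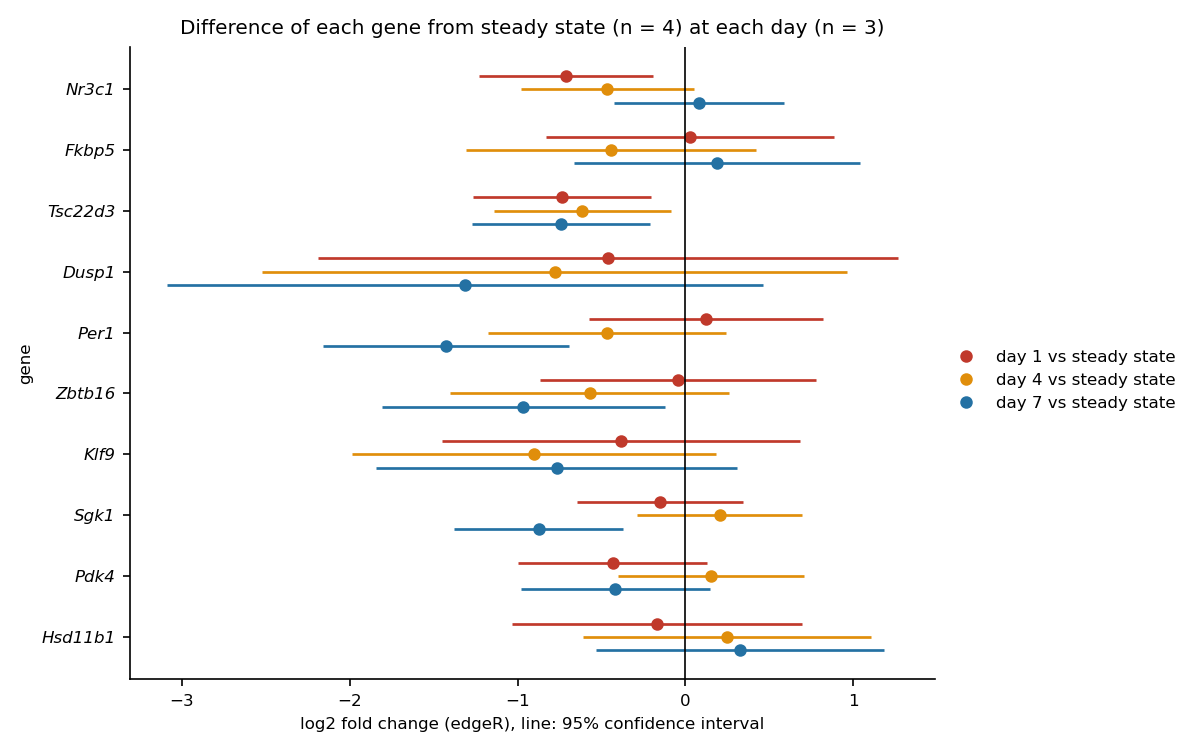
Log2 fold change (horizontal axis) of each gene at days 1, 4 and 7 (n = 3 each) against steady state (n = 4), with points for the edgeR estimate and lines for the 95% confidence interval. The intervals of Tsc22d3 lie below 0 at all 3 days, and those of Per1, Sgk1 and Zbtb16 at day 7 and of Nr3c1 at day 1; none of these passed after adjustment over all genes.

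Per kilobase, the steady-state order after Dusp1 was Hsd11b1 (62.5 ± 33.4 CPM per kilobase, SD, n = 4), Tsc22d3 (59.9 ± 13.8), Sgk1 (49.7 ± 11.8), Nr3c1 (26.5 ± 2.07), Klf9 (18.7 ± 5.83), Fkbp5 (7.77 ± 2.29), Pdk4 (7.68 ± 2.63), Zbtb16 (3.32 ± 1.85) and Per1 (2.81 ± 0.37). Neighbours in this order lay within their SDs of each other, except at the steps from Sgk1 to Nr3c1 and from Klf9 to Fkbp5. Libraries of a day and of steady state lay apart without overlap for 2 members at day 1 (Nr3c1 and Tsc22d3, lower, 8.56% of genes), 2 at day 4 (Per1 and Tsc22d3, lower, 8.22%) and 4 at day 7 (Sgk1, Per1, Dusp1 and Tsc22d3, lower, 4.67%). No member was higher without overlap at any of the 3 days, while 7.25%, 6.44% and 2.82% of genes were. Between days 7 and 1, 3 members were lower without overlap (Zbtb16, Sgk1 and Per1, 14.8% of genes) and 1 higher (Nr3c1, 12.7%). Between days 7 and 4, 2 were lower (Pdk4 and Sgk1, 14.0%) and 2 higher (Fkbp5 and Nr3c1, 12.2%). Between days after TBI, the test of day 4 against day 1 called 0 of 10 members and 1.43% of genes. In that test no member had an unadjusted p under 0.05, and DESeq2 called 0.

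Genes whose levels followed those of 4 members most closely over the 13 libraries were found by Pearson's r of log2(CPM + 0.5), among genes with a mean of at least 5 CPM. They were Aff3 (r = 0.977), 4632415L05Rik (0.969) and Simc1 (0.961) for Nr3c1, and Sbk1 (0.934), Cdan1 (0.932) and Ldb1 (0.930) for Fkbp5. For Tsc22d3 they were Numb (0.912), Ccndbp1 (0.884) and Bsdc1 (0.863), and for Zbtb16 Ptprq (0.898), Slc4a8 (0.893) and Fgf21 (0.881). The libraries share conditions, depth and the split seen on the first principal component, and these values are a description.

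Of 19 other genes known to be induced by glucocorticoids, 2 were higher at day 1 than at steady state, the metallothioneins Mt1 and Mt2, which bind zinc and copper and also answer to metals and oxidative stress. In that comparison 2.35% of all genes were called in either direction. Mt1 was 71.5, 143, 31.1 and 101 CPM at steady state and 843, 357 and 336 CPM at day 1, a log2 difference of 2.56 ± 0.47 (SE, adjusted p = 0.0103). Mt2 was 6.75, 16.8, 3.81 and 11.1 CPM at steady state and 233, 75.1 and 69.9 CPM at day 1, a difference of 3.71 ± 0.53 (adjusted p = 0.00185). Both were higher in 3 of 3 libraries and highest in day 1 replicate 1. Without that library Mt1 was higher by 2.00 (adjusted p = 0.0581). Mt1 passed in 19 of 22 alternatives. Its call was also lost with only the 2 conditions compared (2.49, adjusted p = 0.0644) and without the 3 libraries that stood apart (2.01). Mt2 passed in all 22 alternatives. No gene of the list passed at day 4 or day 7 in edgeR, where 5 and 3 had an unadjusted p under 0.05 and DESeq2 called 2 and 1. Of all genes, 13.02% and 13.5% had an unadjusted p under 0.05 at days 4 and 7, and DESeq2 called 3.23% and 5.41%. The median log2 difference of the list was -0.04, -0.18 and -0.37 at days 1, 4 and 7, beside -0.10, -0.13 and 0.00 over all genes. At day 7 against day 1, 3 of the 19 fell, Mt1 by 2.74 and Mt2 by 3.73 on the log2 scale and the clock repressor Per2 by 1.75 (adjusted p = 0.0479), while 8.13% of all genes were called and 4.45% called lower. The count ran from 0 to 5 in 23 alternatives. It reached 5 without the PBS day 1 replicate 2 library, where 10.3% of all genes were called. With a thymocyte score as covariate Mt1 was -1.83 (adjusted p = 0.29) and Mt2 -2.95 (adjusted p = 0.143), and Mt1 was also lost without day 7 replicate 2 (-2.56, adjusted p = 0.0538) and without the 3 libraries that stood apart (-2.19, adjusted p = 0.0801). The Per2 call was kept in 9 of 23 alternatives, and without day 1 replicate 2 the difference was -1.004 (adjusted p = 0.214).

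Of 9 inflammatory genes that glucocorticoids hold down, 3 rose at day 1 and none fell, while 2.35% of all genes were called in either direction. Cxcl10, an interferon-induced chemokine for T cells, was 88.9, 20.7, 29.2 and 19.3 CPM at steady state and 1142, 434 and 554 CPM at day 1, a log2 difference of 4.17 ± 0.54 (adjusted p = 0.000916). The monocyte chemokine Ccl2 rose from a mean of 13.6 ± 11.7 CPM (SD, n = 4) to 174 ± 77.1 CPM (n = 3), a log2 difference of 3.67 (adjusted p = 0.00185). The cytokine Il1b rose from 0.967 ± 0.763 CPM to 4.93 ± 1.51 CPM, a log2 difference of 2.33 (adjusted p = 0.048). The Il1b call was kept in 12 of 21 alternatives and was lost without any 1 of the day 1 libraries (2.33, 2.54 and 2.10 without replicates 1, 2 and 3), while Cxcl10 and Ccl2 passed in all 22. None of the 9 passed at day 4 or day 7 in edgeR (1 and 6 at an unadjusted p under 0.05, and 0 and 4 called by DESeq2), where the list's median log2 difference from steady state was -0.27 and -1.45 after 0.68 at day 1. The shares of all genes at days 4 and 7 were 13.02% and 13.5% at an unadjusted p under 0.05, and 3.23% and 5.41% by DESeq2. At day 7 against day 1, 6 of the 9 fell (Cxcl10, Ccl2, Il1b, Il6, Cxcl1 and Ptgs2), beside the 4.45% of all genes called lower. The count ran from 2 to 8 in 23 alternatives and reached 8 with DESeq2, which called 14.7% of all genes.

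**Figure D5:**
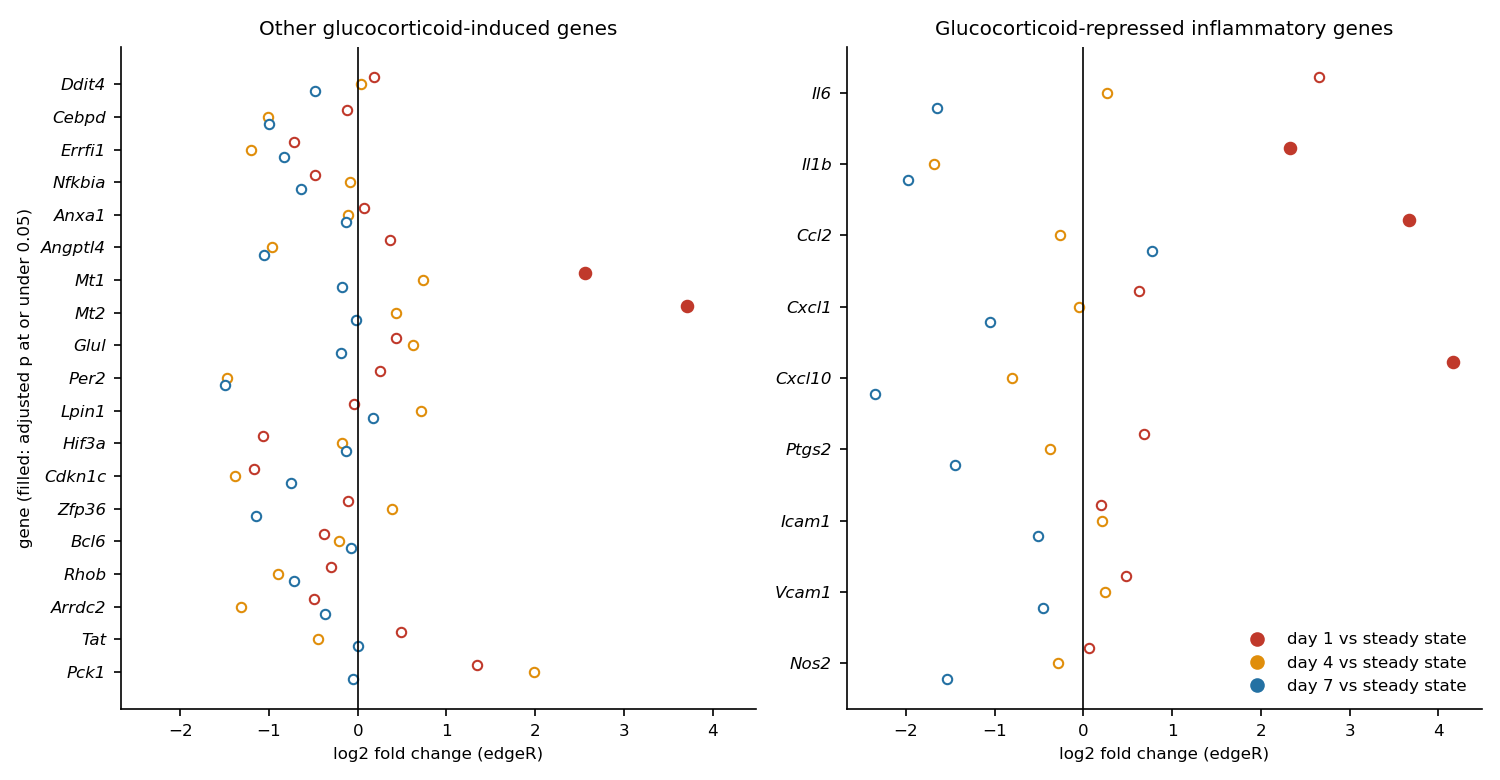
Log2 fold change (horizontal axes) against steady state at days 1, 4 and 7 of 19 other glucocorticoid-induced genes (left) and 9 glucocorticoid-repressed inflammatory genes (right), with filled points where the adjusted p is at or under 0.05. Filled points are Mt1 (2.56) and Mt2 (3.71) on the left and Il1b (2.33), Ccl2 (3.67) and Cxcl10 (4.17) on the right, all at day 1.

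The lists of receptor chaperones, coregulators, steroid genes, clock genes and immediate early genes gave no call against steady state at any day in edgeR. Of all genes, 17.2%, 13.02% and 13.5% had an unadjusted p under 0.05 at days 1, 4 and 7. DESeq2 called 7.00%, 3.23% and 5.41% of all genes at these days. None of 8 receptor chaperones passed. Hsp90ab1, the HSP90 that holds the receptor ready for hormone, had a mean of 1049 ± 219 CPM (SD, n = 4) at steady state, 1380 ± 561 CPM at day 1, 677 ± 60.1 CPM at day 4 and 946 ± 179.9 CPM at day 7 (n = 3 each). Hspa8, the constitutive HSC70, had 821 ± 216 CPM at steady state and 444 ± 48.5 CPM at day 4 (log2 difference -0.89, adjusted p = 0.174). The list's median log2 difference was -0.70 at day 4, where 5 of the 8 had an unadjusted p under 0.05 and DESeq2 called 1 (Hspa8). At days 1 and 7 there were 0 and 2 at an unadjusted p under 0.05 and 0 by DESeq2. None of 10 coregulators passed, with 1, 1 and 0 at an unadjusted p under 0.05 at days 1, 4 and 7 and 0 by DESeq2. Smarca4, the chromatin remodeller BRG1, had 108 ± 18.0 CPM at steady state and 173.8 ± 92.5 CPM at day 7, and the coactivator Ncoa3 had 68.4 ± 14.4 and 67.1 ± 17.1 CPM.

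Of 10 genes of steroid synthesis and metabolism 9 were tested, and 0 passed against steady state, with 2, 2 and 3 at an unadjusted p under 0.05 and 1, 0 and 1 by DESeq2 (H6pd and Cyp11a1). For this list and the next 2, the shares of all genes were 17.2%, 13.02% and 13.5% at an unadjusted p under 0.05. By DESeq2 they were 7.00%, 3.23% and 5.41% at days 1, 4 and 7. Star, which brings cholesterol into mitochondria, had 35.7 ± 14.3 CPM at steady state and 21.7 ± 3.99 CPM at day 1. Cyp11b1, the final enzyme of corticosterone synthesis, was called lower at day 7 than at day 1 along with H6pd, but with at most 20 counts in a library, and it is named here after its values were seen. None of 13 clock genes passed, with 1, 4 and 1 at an unadjusted p under 0.05 and 1, 1 and 0 by DESeq2 (Clock). Nr1d1, the repressor REV-ERBα, had 115 ± 57.6 CPM at steady state and 206 ± 40.3 CPM at day 4 (log2 difference 0.84, adjusted p = 0.37), and Bhlhe40 had 137 ± 63.3 CPM at steady state and 204 ± 12.6 CPM at day 1 (0.58, adjusted p = 0.365). None of 10 immediate early and heat shock genes passed against steady state, with 0, 2 and 4 at an unadjusted p under 0.05 and 0, 1 and 3 by DESeq2. Fos, a subunit of AP-1, was 2513, 1245, 752 and 1266 CPM at steady state, highest in the PBS day 1 replicate 2 library, as Dusp1 was. It had 551 ± 143 CPM at day 7 and was lower there than at day 4 by -1.64 (adjusted p = 0.0455), a call kept in 8 of 23 alternatives. Egr1 had 1104 ± 766 CPM at steady state and 445 ± 129 CPM at day 7 (log2 difference -1.31, adjusted p = 0.547).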

How the data were processed

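Bulk RNA-seq of CD45- thymic stromal cells was analysed in 4 libraries at steady state and in 9 libraries after TBI, 3 for each of days 1, 4 and 7. Per the labels, the authors used Trimmomatic 0.38 for trimming, STAR 2.7.0e for alignment to GRCm38.p5 (mm10) and featureCounts 1.6.3 for counts per gene. The deposited table holds unnormalized counts as whole numbers, 1 column per library, and the exonic length of each gene. Groups came from the sample labels. The steady-state columns carry other numbers than the labels and were used as a group. Symbols came from GENCODE M21 (GRCm38), in which 53274 of 53379 identifiers had a symbol. Gene coordinates came from the exon positions in the deposited table.

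All 13 libraries entered 1 fit in edgeR 4.0.16 (R 4.3.3) with TMM normalization, filterByExpr() by condition (a minimum count of 10 and a total of 15) and the quasi-likelihood F-test. A gene was called where its p-value, adjusted by Benjamini and Hochberg over the 19984 genes kept, was at most 0.05, without a fold threshold. The common dispersion was 0.177. SEs are the size of the log2 fold change over the square root of F, and the intervals are at 95%. The window GC of a gene is that of the richest 200-base window (step of 50 bases) of its longest transcript. Tables and plots were made with Python 3.11.15, pandas 2.3.3, numpy 2.4.6 and matplotlib 3.10.9, and the fit was tested on simulated data.

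The rule for named genes took all 10 members. Of each other list it took up to 3 genes with the largest called difference from steady state, or the 2 with the highest mean CPM where none was called. Members and lists were chosen with earlier results of these data known. An erythroid marker of the lists is not reported here. H6pd and Fos at other comparisons, Per2, Cyp11b1 and the genes that DESeq2 called were named after their values were seen.

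The alternatives were RLE normalization, DESeq2 1.42.0, no filter beyond 1 count, a filter of 10 counts in every library, only the 2 conditions compared, the tag family of the column names or the thymocyte score as a covariate, a block for the replicate number, and leaving out each library in turn. The summed thymocyte markers did not overlap between days 1, 4 and 7, nor between steady state and days 1 and 4. In those comparisons the thymocyte score and the condition cannot be fully told apart. Removal of each library's trend with window GC (lowess span 0.3) and a fit without the 3 libraries that stood apart were added after seeing the data.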

Additional observations from a re-analysis of the deposited data

Results flagged for a closer look

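In the steady-state libraries, 1 library lay far from the other 3 in 2 of the 10 genes, by Dixon's ratio above its critical value for 4 samples. Per1 was 18.9 CPM in the PBS day 7 replicate 2 library against 14.4 to 15.04 CPM in the others, and Dusp1 was 657 CPM in the PBS day 1 replicate 2 library against 299 to 329 CPM. Chance flags about 1 in 20 groups, or 0.5 of the 10 tested here. Without the PBS day 1 replicate 2 library, no member passed against steady state at any day, as in the fit of all libraries. Of all genes, 2.40%, 0.260% and 0% were called there at days 1, 4 and 7. Without the PBS day 7 replicate 2 library no member passed either, and 1.38%, 0.221% and 0% of all genes were called.

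The difference between days was called for Per1, with a log2 fold change of -1.55 at day 7 against day 1, and for Sgk1, with -1.08 at day 7 against day 4. These are tests of the difference between the responses at the days compared, since the steady-state libraries cancel from them. Day 7 was lower in 3 of 3 libraries in each.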

How the results depend on the processing

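Counts of called members depended on the setting. Among the 4 conditions, DESeq2 called 2 (with 18.3% of all genes), no filter 1 (5.95%), the tag family 1 (5.90%), removal of the window GC trend 2 (Sgk1 and Tsc22d3, with 9.65%) and leaving out a library 0 to 1, against 0 (6.66%). Against steady state, the tag family gave 1 at day 1 (Nr3c1, with 5.33% of all genes), DESeq2 gave 2 at day 7 (5.41%) and no filter 1 (Per1, with 1.66%), while day 4 stayed at 0 in all 22 alternatives. At day 7 against day 1 the count of 1 (8.13% of all genes called) became 3 with DESeq2 (14.7%), 2 with the tag family (7.09%), 0 with the thymocyte score (2.41%), 0 without the 3 libraries that stood apart (0.8%), and 0 to 2 with a library left out. At day 7 against day 4 the count of 1 (3.90%) became 0 with the thymocyte score (0.135%), 0 without the 3 libraries (0.0364%) and 0 to 1 with a library left out. With a library left out, 3.30% to 10.3% of all genes were called among the 4 conditions. The share was 2.28% to 10.3% at day 7 against day 1 and 0.0725% to 7.26% at day 7 against day 4. The cause was not tested, although the fit without the 3 libraries left 1 library at day 4, which was assumed to vary like the other groups.

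Signs turned only for differences that were not called. At day 1 these were Fkbp5 with the tag family (-0.27), Zbtb16 with RLE (0.0238), DESeq2 (0.0236), the thymocyte score (0.35) and the window GC trend removed (0.0274), and Per1 (-0.19), Klf9 (0.0341) and Dusp1 (0.10) without the 3 libraries. At day 4 they were Zbtb16 (0.28) and Pdk4 (-0.11) with the thymocyte score, and Pdk4 (-0.0419), Dusp1 (0.46) and Hsd11b1 (-0.0637) without the 3 libraries. With a library left out, the day 1 difference ran from -0.45 to 0.43 for Fkbp5, -0.20 to 0.38 for Per1, -0.30 to 0.41 for Zbtb16, -0.74 to 0.0158 for Klf9, -0.32 to 0.0545 for Sgk1, -0.90 to 0.0740 for Dusp1 and -0.46 to 0.25 for Hsd11b1. At days 4 and 7 no sign turned with a library left out, but sizes moved. At day 4 the range was -2.24 to -0.34 for Dusp1, -0.82 to -0.0764 for Zbtb16, -0.64 to -0.0608 for Per1 and 0.0140 to 0.71 for Hsd11b1, and at day 7 it was -1.15 to -0.38 for Klf9, -1.22 to -0.57 for Zbtb16 and 0.0917 to 0.69 for Hsd11b1.

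After TBI, deviations of same-numbered libraries correlated at a mean of -0.25 (9 pairs) against 0.10 for other numbers (18 pairs). These values also carry the split on the first principal component. Day 1 replicate 1 correlated at -0.84 with day 4 replicate 1 and at 0.71 with day 4 replicate 2, which also stood apart. They therefore cannot decide whether the replicate numbers pair the libraries. With the replicate block, the counts were 0 at day 7 against day 1 (Per1 -1.56, adjusted p = 0.116, with 3.34% of all genes called) and 0 at day 7 against day 4 (Sgk1 -1.08, adjusted p = 0.108, with 0% of all genes called). No paired analysis was possible for comparisons with steady state because those columns do not carry the replicate numbers of the labels.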
